A study of Mus musculus with 86 samples.

Results

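The genes described here encode extracellular matrix: collagens, laminin chains, nidogens and 12 further matrix proteins. They were picked by symbol alone, as every row of the deposited expression table named as a collagen chain, a laminin alpha, beta or gamma chain, Nid1 or Nid2, together with Fn1, Fbn1, Fbn2, Sparc, Tnc, Vcan, Lum, Dcn, Postn, Bgn, Pcolce and Hspg2. This gave 48 of the 12360 genes of the table. They comprised 9 fibrillar collagens, 15 basement membrane genes, 13 other collagens and 11 glycoproteins or proteoglycans. The rule for the symbols names no measured value. However, the table itself holds only genes above an RPKM (defined below) of 3 in 3 or more cells. The list was also set with earlier results of these data known.

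RNA was measured in 86 single cells of the metanephros, the embryonic kidney, of wild-type mice of mixed background at 12.5 days post coitum (Theiler stage 20), with no treatment named. Kidneys of males and females were pooled, dissociated with trypsin and captured cell by cell on a microfluidic chip. The deposited values are RPKM, that is, reads scaled to the gene's length and to the mapped reads of the cell, so levels of different genes are per length. All cells belong to 1 pool, cells are not replicates of a condition, and no difference between cells was tested.

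The cells were compared in 3 classes, each set by a gene outside the matrix list. Bud cells had a Mal2 RPKM of at least 100, Six2-detecting cells had a Six2 RPKM of at least 1 among the others, and the rest are called remaining cells. Six2 is the transcription factor that marks nephron progenitors. There were 7 bud cells, 46 Six2-detecting cells and 33 remaining cells. Mal2 ran from 1219 to 2699 in the bud cells, did not exceed 3.41 elsewhere, and no cell lay between 10 and 100. The Six2 limit was less sharp: the lowest Six2-detecting cell had an RPKM of 1.50, the highest remaining cell 0.527, and 3 bud cells also detected Six2.

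The labels give no cell type, so the class names were checked against marker genes. Of 11 ureteric bud markers in the table, the bud cells detected between 7 and 10 (median 10), and Ret, the receptor that drives bud branching, was found in 6 of 7 bud cells and in none of the others. Six2-detecting cells had a median of 9 of 11 nephron progenitor markers, against 5 in the remaining cells and 5 in the bud cells. For the 7 induced nephron markers in the table, the median was 4 in bud, 2 in Six2-detecting and 2 in remaining cells. Remaining cells had a median of 9 of 10 stroma markers, against 6.5 in Six2-detecting and 4 in bud cells. The remaining cells are a mixture: 25 of 33 detected Foxd1, the transcription factor of the renal stroma, and 4 detected Wnt4 or Lhx1, genes of induced nephrons. The Six2-detecting cells are mixed too, since 31 of 46 detected Foxd1. A gene counts as detected from an RPKM of 1 upwards. The median number of genes detected in a cell was 6488, 6256 and 6087 in bud, Six2-detecting and remaining cells. In 5 cells, here called few-gene cells, between 3458 and 4377 genes were detected, more than 3 median absolute deviations below the median, and 4 of them are remaining cells.

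Fibrillar collagens (types I, II, III, V and XI, and the shorter types XXIV and XXVII) assemble into the fibres of connective tissue, and in organs they are mostly made by stromal cells and fibroblasts. Basement membranes are thin sheets under epithelia and around vessels, built from a laminin network and a type IV collagen network that nidogen and perlecan (Hspg2) link. Each laminin joins an alpha, a beta and a gamma chain, and the alpha chain sets which receptors bind it. In the kidney, the ureteric bud is an epithelium on such a sheet, while nephron progenitors are mesenchyme that later forms its own.

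Promoter sequence is shown for the fibrillar collagen with the highest mean in remaining cells, Col1a2, and for the laminin alpha chain detected in every bud cell, Lama5, since these genes lay at opposite ends of the pattern below. Each run holds the 250 bases before the RefSeq transcript start in GRCm38.p6, in the gene's own 5′ to 3′ direction. Capitals mark the CCAAT box motif and the GC box motif GGGCGG on either strand, so that CCGCCC is the GC box on the opposite strand. The Col1a2 run lies on the plus strand at chr6:4505368-4505617, and the Lama5 run on the minus strand at chr2:180225860-180226109.
Col1a2: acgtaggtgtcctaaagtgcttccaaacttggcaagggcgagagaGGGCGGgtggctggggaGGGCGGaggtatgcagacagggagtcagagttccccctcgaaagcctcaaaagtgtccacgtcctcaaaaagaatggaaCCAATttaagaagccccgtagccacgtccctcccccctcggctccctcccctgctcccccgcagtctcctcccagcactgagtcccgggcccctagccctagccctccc
Lama5: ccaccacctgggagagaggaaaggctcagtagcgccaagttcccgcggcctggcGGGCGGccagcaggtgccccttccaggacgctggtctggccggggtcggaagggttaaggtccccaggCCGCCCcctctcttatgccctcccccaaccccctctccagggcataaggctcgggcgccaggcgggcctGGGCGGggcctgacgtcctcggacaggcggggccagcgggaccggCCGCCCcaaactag
The Col1a2 window held 1 CCAAT and 2 GGGCGG matches, and the Lama5 window held 4 GGGCGG matches and no CCAAT. A RefSeq window was found for 34 of the 48 genes. Over the whole list GGGCGG was about equally common in the 4 roles. It was present before 7 of 10 basement membrane genes (70.0%) and 4 of 6 fibrillar collagen genes (66.7%). It was also present before 8 of 11 other collagen genes (72.7%) and 5 of 7 glycoprotein or proteoglycan genes (71.4%). The share was 65.4% of the table's genes with a window and 35.4% of all RefSeq genes with a window. CCAAT was present before 5 of 10 basement membrane, 2 of 6 fibrillar collagen (33.3%), 4 of 11 other collagen (36.4%) and 1 of 7 glycoprotein or proteoglycan genes (14.3%). Its share was 41.2% of the table's genes and 37.5% of all RefSeq genes with a window. TATAAA was found before 1 of 6 fibrillar collagen, 0 of 10 basement membrane, 1 of 11 other collagen and 2 of 7 glycoprotein or proteoglycan genes (28.6%). Its share was 7.41% of the table's genes and 14.3% of all RefSeq genes with a window. With so few genes a role, these shares are descriptions. A match is a string of letters and no measured binding.

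Col4a1 and Col4a2, the chains of the ubiquitous type IV collagen, are transcribed away from each other from a shared promoter. In the deposited mm9 coordinates Col4a1 (gene identifier 12826, chr8:11198423-11312826) and Col4a2 (gene identifier 12827, chr8:11312829-11449287) lie 3 bases apart, gap counted from the end of Col4a1 to the start of Col4a2. In RefSeq the start of Col4a1 lies 3′ of the start of Col4a2 on the plus strand, so the transcripts share 22 bases at chr8:11312805-11312826 of GRCm38.p6. These bases are shown because they lie in both genes, with the GC box in capitals.
Col4a1 and Col4a2: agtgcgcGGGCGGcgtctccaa
Despite that position, the chains were often found apart. Of 86 cells, 29 detected both, 21 only Col4a1, 9 only Col4a2 and 27 neither. In the bud class, 3 cells detected both and 3 only Col4a1. Whether reads were counted by strand is not given in the sources used here.

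Levels differed greatly between the 48 genes. Fbn2, a microfibril protein of embryonic tissues, was the 1 gene detected in all 86 cells. Another 11 were detected in at least 50% of cells, which makes 12 in all, while Col13a1 was found in 3 cells. In 20 genes the mean RPKM reached 10 in at least 1 of the 3 classes, among them Col1a1, Col1a2 and Col3a1 of the fibrillar collagens; Lamc1, Lamb1, Lama4, Col4a1, Nid1 and Nid2 of the basement membrane; Col18a1; and Fn1, Postn, Pcolce, Dcn, Lum, Sparc, Vcan, Fbn2 and Bgn. The other 28 had a highest class mean of at most 9.18. A cell detected a median of 14 of the 48 genes in the bud, 14 in the Six2-detecting and 19 in the remaining class. The heatmap of 47 genes shows these levels cell by cell.

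**Figure D1:**
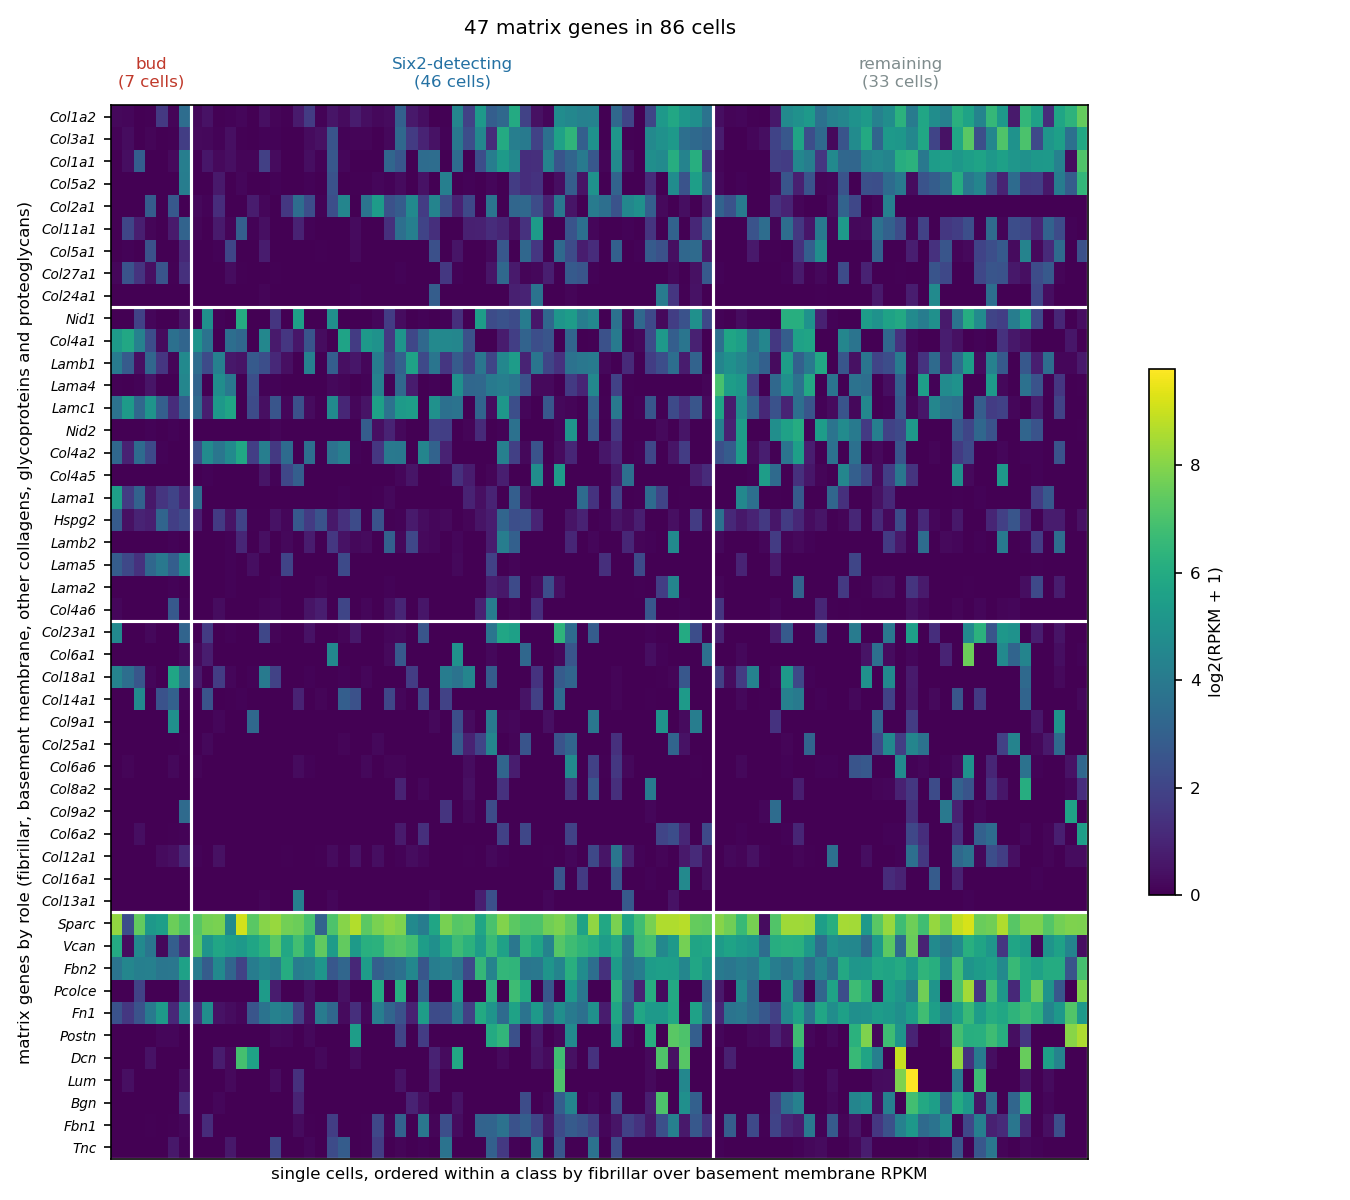
Level of 47 of the 48 matrix genes, as log2(RPKM + 1), in each of the 86 cells. Columns are cells, grouped into 7 bud, 46 Six2-detecting and 33 remaining cells and ordered from low to high fibrillar over basement membrane RPKM within a class; rows are genes by role. Lama5 fills the bud columns, Vcan all 46 Six2-detecting columns, and the upper fibrillar rows the right of the remaining columns.

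Between classes, a ratio is the log2 of (mean RPKM + 1) in a class over (mean RPKM + 1) in the other, and a gene counts as higher or lower at a ratio of at least 1 in size. With 1 pool this is a size rule and no test. Of the 48 genes, 6 were higher in bud than in Six2-detecting cells, where 10.3% of all genes were, and 18 were lower, where 20.9% were. Against remaining cells, 8 were higher in the bud (12.3% of all genes) and 26 lower (22.0%). In Six2-detecting against remaining cells, 1 was higher (7.40% of all genes) and 17 were lower (7.65%). The count of higher genes in bud over Six2-detecting cells was therefore near the share over the table, and the counts of lower genes were above it in all 3 comparisons. In total 5 genes were listed at 0 in every bud cell (Col4a5, Col8a2, Col13a1, Col16a1 and Col24a1). They have no ratio to bud here, although 1 of them is counted as lower against Six2-detecting cells and 3 against remaining cells. Of the 48 genes, 17 were detected in no bud cell. The share over all genes was not counted. Such genes could pass the filter of the table only through the other cells.

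By role, the median ratio in bud over remaining cells was -1.15 for fibrillar collagens, -0.37 for basement membrane genes, -0.68 for other collagens and -2.69 for glycoproteins and proteoglycans, against -0.14 over all genes. In Six2-detecting over remaining cells the medians were -0.59, 0.02, -0.81 and -1.27, against 0.02 over all genes. In bud over Six2-detecting cells they were -0.88, 0.12, -0.49 and -2.02, against -0.19. Basement membrane genes thus had medians near those of all genes while their members spread to both sides, as the chart of ratios shows.

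**Figure D2:**
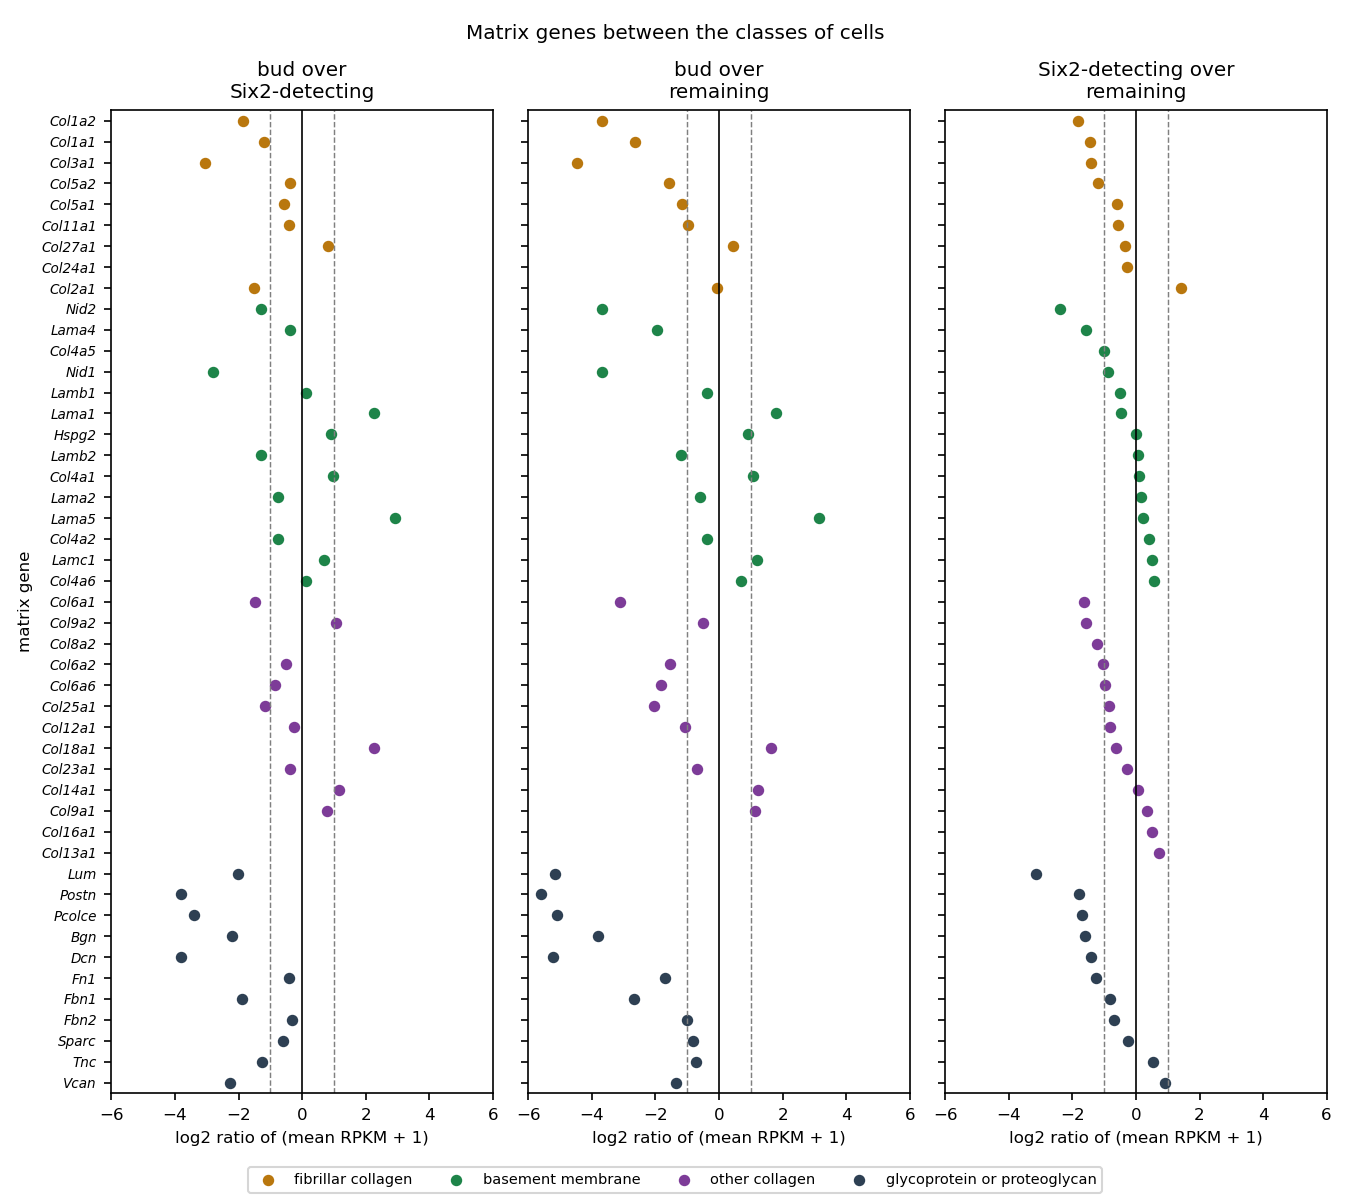
Log2 ratio of (mean RPKM + 1) for 47 matrix genes (rows, coloured by role) in bud over Six2-detecting, bud over remaining and Six2-detecting over remaining cells. Dashed lines stand at -1 and 1, and the 5 genes listed at 0 in all bud cells are left out of the bud panels. The basement membrane genes shown reach from Nid1 at -3.70 to Lama5 at 3.13 in bud over remaining cells, while in the right panel Col2a1 at 1.43 is the 1 gene beyond the upper line.

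The major fibrillar collagens Col1a1, Col1a2 and Col3a1 had their lowest class mean in bud cells and their highest in remaining cells. For Col1a1 this holds for the Six2-detecting class as a whole, since its 15 cells without Foxd1 averaged 3.08 against 3.48 in the bud, a bud ratio of 0.14 in place of -1.21. Col1a2 (gene identifier 12843, mm9 chr6:4455697-4491543), the alpha-2 chain of type I collagen, ran from 0 to 10.5 in bud cells (median 0.129), from 0 to 61.8 in Six2-detecting cells (median 0.632) and from 0 to 179 in remaining cells (median 27.0). The classes overlapped, since each held cells at or near 0. Its mean was 1.85 ± 3.87 (SD over 7 cells), 9.37 ± 15.6 (46 cells) and 35.8 ± 37.5 (33 cells), which is a log2 ratio of -1.83 in Six2-detecting over remaining cells. It was detected in 2 of 7, 21 of 46 and 26 of 33 cells. The last share is 78.8% with an exact Clopper-Pearson 95% interval of 61.1% to 91.0%, and the Six2-detecting share is 45.7% (30.9% to 61.0%). Such intervals cover counting error only.

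Col1a1, the alpha-1 chain of type I collagen, had a median of 0.177 (0 to 17.3) in bud, 2.08 (0 to 69.5) in Six2-detecting and 22.5 (0 to 135) in remaining cells. Its mean was 3.48 ± 6.56, 9.39 ± 15.9 and 27.3 ± 28.2, a log2 ratio of -1.45 in Six2-detecting over remaining cells. Col3a1, the homotrimeric type III collagen of soft tissue, was found in 1 of 7 bud cells, 23 of 46 Six2-detecting cells and 26 of 33 remaining cells. Its medians were 0.0593, 1.14 and 11.2, its maxima 2.43, 85.0 and 156, and its means 0.413 ± 0.895, 10.7 ± 18.2 and 30.6 ± 40.7. The ratio was -1.43 in Six2-detecting over remaining cells and -4.48 in bud over remaining cells. So few bud cells held these transcripts that 1 cell made up most of the bud level: cell 20 carried 57.3% of the fibrillar RPKM of all 7 bud cells and was the highest bud cell for 5 of the 9 fibrillar genes. That cell also detected 7 of 10 stroma markers. Leaving out the highest cell of each class moved Col1a2 from -1.86 to -2.70 and Col1a1 from -1.21 to -2.05 in bud over Six2-detecting cells.

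Stroma markers differed between the classes in the same order as these collagens. Their summed RPKM had a median of 74.2 (1.96 to 545) in bud, 381 (87.3 to 1208) in Six2-detecting and 939 (84.8 to 1926) in remaining cells, and their part in the collagen differences was not tested.

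These 3 collagens were found in the same cells. Col1a1 and Col1a2, which form the same triple helix, were both detected in 44 of 86 cells, Col1a1 alone in 10, Col1a2 alone in 5 and neither in 27. Across the 86 cells the log2(RPKM + 1) values of Col1a1 and Col1a2 had a Pearson r of 0.74, and within the 46 Six2-detecting and 33 remaining cells r was 0.70 and 0.65. For Col1a2 and Col3a1, r was 0.78 over all cells, 0.83 within Six2-detecting and 0.63 within remaining cells. Cells share the pool and the chip and differ in depth, so these values are descriptions.

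Col2a1, the fibrillar collagen best known from cartilage, went the other way. This gene, Col4a2, Lama1 and Lama5 fall below the mean of 10 used for full description and were singled out after their values were seen. Col2a1 had a median of 2.87 (0 to 40.7) in Six2-detecting cells and of 0 in both bud (0 to 6.22) and remaining cells (0 to 18.3). Its means were 1.68 ± 2.88, 6.59 ± 9.20 and 1.82 ± 4.40. It was detected in 26 of 46 Six2-detecting cells (56.5%, 41.1% to 71.1%) and in 7 of 33 remaining cells (21.2%, 8.98% to 38.9%), a log2 ratio of 1.43. Col2a1 was the 1 matrix gene higher in Six2-detecting than in remaining cells by the size rule. It was found with Col1a1 in 17 of 86 cells, without it in 18, and Col1a1 was found without Col2a1 in 37. It made up 14.5% of the fibrillar RPKM in Six2-detecting cells and 1.59% in remaining cells.

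The other fibrillar collagens were low. Col5a2, which lies 24625 bases from Col3a1 in mm9, had means of 2.42, 3.47 and 9.18 in the 3 classes, and a ratio of -1.19 in Six2-detecting over remaining cells that was -0.75 without the few-gene cells. Of the 34 cells that detected Col5a2, all but 2 also detected Col3a1. Col5a1, Col11a1, Col24a1 and Col27a1 had class means from 0 to 4.37. Col27a1 was the fibrillar gene found in the largest share of bud cells, 4 of 7, with a bud mean of 1.90 ± 2.05.

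**Figure D3:**
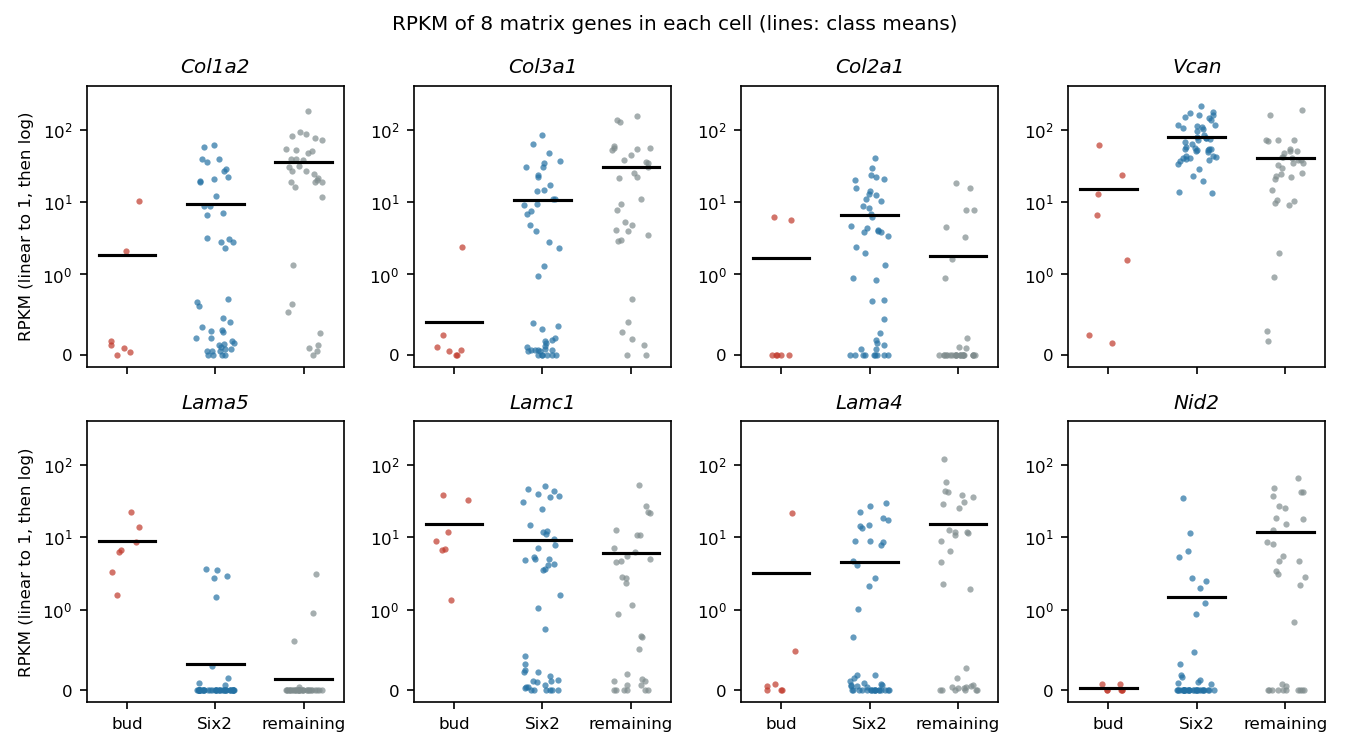
RPKM of 8 matrix genes in each bud, Six2-detecting and remaining cell, on an axis that is linear up to 1 and logarithmic above; each point is a cell and each line a class mean. By their means, Col1a2 and Col3a1 are highest in remaining cells, Col2a1 and Vcan in Six2-detecting cells, and Lama5 and Lamc1 in bud cells; no bud cell reaches an RPKM of 1 for Nid2.

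Among basement membrane genes, the laminin chains differed between the classes in different directions. Of the chains described here, Lama5 set the bud cells apart most clearly. Lama5 (gene identifier 16776, mm9 chr2:179911078-179960564), the alpha chain of the main laminins of epithelial basement membranes, was detected in 7 of 7 bud cells, 5 of 46 Six2-detecting cells and 1 of 33 remaining cells. In bud cells it ran from 1.62 to 22.7 with a median of 6.60, and elsewhere it did not exceed 3.63. Thus 5 bud cells lay above every other cell, and 5 of the 79 other cells lay at or above the lowest bud cell. The mean was 9.03 ± 7.19 in bud, 0.326 ± 0.939 in Six2-detecting and 0.142 ± 0.564 in remaining cells, with ratios of 2.92 and 3.13. The exact 95% interval of the bud share is 59.0% to 100%, and that of the 79 other cells (7.59%) is 2.84% to 15.8%.

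Lamc1, the gamma chain of most laminins, was found in 7 of 7 bud cells (1.36 to 39.1, median 9.04), 25 of 46 Six2-detecting cells (0 to 51.8, median 2.57) and 17 of 33 remaining cells (0 to 52.1, median 1.15). Its means of 15.4 ± 14.5, 9.26 ± 14.6 and 6.17 ± 10.9 overlap widely, and the ratio in bud over remaining cells was 1.19. Lama1, the alpha chain of the first embryonic laminin, was detected in 6 of 7 bud cells, 7 of 46 Six2-detecting cells and 8 of 33 remaining cells. Its bud mean of 8.68 ± 16.0 was 2.69 without cell 53, the bud cell with 44.7, and the ratio in bud over remaining cells was 1.80, or 0.79 without the highest cell of each class.

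Lama4, the alpha chain of vessels and mesenchyme, was instead highest in remaining cells. Its medians were 0.0510, 0.0840 and 4.63 in the 3 classes and its maxima 21.8, 29.4 and 122. It was detected in 1 of 7 bud, 17 of 46 Six2-detecting and 19 of 33 remaining cells, with means of 3.21 ± 8.21, 4.53 ± 7.85 and 15.5 ± 25.1 and a ratio of -1.57 in Six2-detecting over remaining cells. The bud mean was carried by cell 20 and was 0.103 without it, and the ratio in bud over Six2-detecting cells moved from -0.39 to -2.17 when the highest cell of each class was left out. Lamb1, the common beta chain, differed little: its means were 8.14 ± 9.02, 7.42 ± 10.3 and 11.0 ± 14.3, with detection in 5 of 7, 32 of 46 and 22 of 33 cells. Lamb2 and Lama2, chains better known from nerve, muscle and glomerulus, had class means of at most 1.46 and were detected in no bud cell.

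Taking the chains as trimers, Lama5, Lamb1 and Lamc1 form the main epithelial laminin. They were detected together in 5 of 7 bud cells and in 0 of the other 79. Lama5 and Lamc1 were each detected in 7 of 7 bud cells, so this bud count is that of Lamb1, 5 of 7. Outside the bud, Lama5 was detected in 6 of 79 cells, which caps the count there. The joint count is therefore no evidence separate from Lama5. The chains of the early embryonic laminin (Lama1, Lamb1, Lamc1) were together in 4 of 7 bud, 4 of 46 Six2-detecting and 4 of 33 remaining cells. The chains of the vascular laminin (Lama4, Lamb1, Lamc1) were together in 1, 10 and 9 cells of these classes. None of the 4 alpha chains in the table (Lama1, Lama2, Lama4 and Lama5) was detected in 21 of 46 Six2-detecting and 10 of 33 remaining cells, whereas every bud cell had at least 1 of them. The depth of each library limits such joint detection, and reads per cell are unknown.

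Nidogens showed the reverse of Lama5. Nid1, which ties laminin to type IV collagen, ran from 0 to 2.84 in bud cells (median 0), from 0 to 64.9 in Six2-detecting cells (median 1.66) and from 0 to 69.7 in remaining cells (median 2.98). Its means were 0.484 ± 1.05, 9.42 ± 15.6 and 18.2 ± 23.5, and 1 of 7, 24 of 46 and 19 of 33 cells detected it. Nid2, its paralog, was detected in 0 of 7 bud cells (upper limit of the exact 95% interval 41.0%), 8 of 46 Six2-detecting cells (17.4%, 7.82% to 31.4%) and 20 of 33 remaining cells (60.6%, 42.1% to 77.1%). Its medians were 0, 0 and 3.48, its maxima 0.0813, 34.5 and 65.5, and its means 0.0229 ± 0.0391, 1.50 ± 5.40 and 12.0 ± 17.2. The ratio of -2.38 in Six2-detecting over remaining cells was the lowest of the basement membrane genes. Both nidogens were found together in 18 cells, Nid1 alone in 26 and Nid2 alone in 10.

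Type IV collagen was shared by all classes. Col4a1 had medians of 11.3 (0.205 to 57.3), 4.26 (0 to 50.8) and 0.508 (0 to 53.8), with means of 19.9 ± 21.0, 9.68 ± 12.8 and 9.01 ± 16.3 and detection in 6 of 7, 30 of 46 and 14 of 33 cells. The ratio in bud over remaining cells was 1.06, and 0.77 without the highest cell of each class. Col4a2 had means of 3.30 ± 4.26, 6.31 ± 10.6 and 4.55 ± 10.6. The minor chains Col4a5 and Col4a6, head to head on chromosome X with a gap of 1343 bases, were detected together in 1 cell, Col4a6 alone in 7 and Col4a5 alone in 17. Col4a5 was listed at 0 in all bud cells and averaged 2.06 ± 7.20 and 5.19 ± 11.2 in the other classes. Hspg2, perlecan, had means of 3.15 ± 2.88, 1.21 ± 1.84 and 1.22 ± 2.10. The make-up of the basement membrane sum therefore differed: in bud cells Col4a1 gave 21.7%, Lamc1 16.8% and Nid1 0.526% of it, while in remaining cells Nid1 gave 20.9%, Lama4 17.7% and Nid2 13.8%.

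Of the other collagens, Col18a1, a collagen of epithelial and vascular basement membranes whose end releases endostatin, was the 1 with a class mean over 10. It ran from 0 to 53.4 in bud cells (median 10.7), from 0 to 20.7 in Six2-detecting cells and from 0 to 38.0 in remaining cells (medians 0). Its means were 14.3 ± 18.6, 2.19 ± 4.83 and 3.95 ± 9.52, with 5 of 7, 12 of 46 and 8 of 33 cells detecting it, and ratios of 2.26 and 1.63 in bud over the other classes. The bud mean was 7.78 without its highest cell. Col6a1, Col6a2 and Col6a6, chains of beaded microfibrils, averaged at most 0.0573 in bud cells. The Col6a1 mean of 7.87 in remaining cells rested on cell 87, a few-gene cell with an RPKM of 194 that made up 56.4% of the gene's total, and the ratio in Six2-detecting over remaining cells was -1.65 with the few-gene cells and -0.19 without them. Col6a2 likewise went from -1.05 to -0.32 and Col9a2 from -1.57 to -0.78. Col8a2 went from -1.23 to -0.46 without the highest cell of each class, cell 31 among the remaining. Col9a1, Col12a1, Col13a1, Col14a1, Col16a1, Col23a1 and Col25a1 had class means from 0 to 7.97.

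Of the 48 genes, 14, not only those of type VI collagen, had their highest value in 1 of the 5 few-gene cells. Of these genes, 6 were highest in cell 45 and 5 in cell 87. How often the other genes of the table were highest in these cells was not counted. Cell 45 had the highest fibrillar sum of all, 464, with a basement membrane sum of 1.36. The part of the few-gene cells in the class differences was measured by leaving them out. Among the genes described in full, ratios in Six2-detecting over remaining cells then moved both ways. They became smaller in size for Col1a2 (-1.55), Col3a1 (-1.23), Col1a1 (-1.29), Postn (-1.15, from -1.81), Pcolce (-1.30) and Fn1 (-1.15). They became larger in size for Lama4 (-1.72, from -1.57), Nid2 (-2.52, from -2.38), Dcn (-1.57, from -1.42), Lum (-3.30, from -3.14) and Bgn (-1.66, from -1.60).

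Glycoproteins and proteoglycans had the lowest median ratios in the bud of the 4 roles. Against remaining cells, 0 of the 11 were higher in the bud (12.3% of all genes) and 9 were lower (22.0%). Against Six2-detecting cells, 0 were higher in the bud (10.3% of all genes) and 8 were lower (20.9%). Periostin (Postn), a matricellular protein of fibroblasts, did not exceed an RPKM of 0.137 in any bud cell. It was found in 12 of 46 Six2-detecting cells (0 to 154) and 13 of 33 remaining cells (0 to 386), with means of 13.5 ± 34.1 and 49.9 ± 90.4 and class medians of 0 and 0.276. Its 2 highest cells, 45 and 64, are few-gene cells. Pcolce, which enhances the trimming of fibrillar procollagen, had medians of 0, 0 and 24.2, means of 0.623 ± 1.13, 16.2 ± 28.6 and 54.8 ± 82.6, and was detected in 2 of 7, 16 of 46 and 25 of 33 cells. Of the 54 cells with Col1a1, 39 also detected Pcolce, and 4 cells had Pcolce alone.

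The small leucine-rich proteoglycans decorin (Dcn), lumican (Lum) and biglycan (Bgn), which bind collagen fibres, were sparse and very uneven. Dcn was found in 7 of 46 Six2-detecting cells (mean 13.7 ± 38.1, highest 151) and 11 of 33 remaining cells (38.3 ± 104, highest 508), and in no bud cell. Lum was found in 3 of 46 and 4 of 33 cells, with means of 3.39 ± 19.5 and 37.8 ± 159. Cell 13 alone, with 889, held 63.4% of the Lum RPKM, and the ratio of -3.14 in Six2-detecting over remaining cells was -0.60 when log2 values were averaged instead. Dcn and Lum lie 47339 bases apart, and 5 of the 7 cells with Lum had Dcn. Bgn was found in 1 of 7, 7 of 46 and 15 of 33 cells, with means of 0.197 ± 0.521, 4.52 ± 20.2 and 15.7 ± 27.3. The Six2-detecting mean of Bgn was 1.64 without cell 90, which had 134, and the ratio in Six2-detecting over remaining cells was -1.60, or -2.37 without the highest cell of each class.

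Versican (Vcan), a large hyaluronan-binding proteoglycan of embryonic mesenchyme, had its highest level in Six2-detecting cells, unlike the other glycoproteins above. All 46 detected it, from 13.4 to 214 (median 60.1), against 30 of 33 remaining cells (0.170 to 186, median 34.1) and 5 of 7 bud cells (0.154 to 61.8, median 6.57). The means were 78.0 ± 48.2, 40.6 ± 40.3 and 15.3 ± 22.2 in that order. The ratio of 0.93 over remaining cells was just short of the size rule, and the ranges overlapped. It passed the rule at 1.38 with log2 values averaged and at 1.04 without the highest cell of each class. In bud over Six2-detecting cells it was -2.27, and the bud mean was 7.59 without cell 53.

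Sparc, a collagen-binding glycoprotein, was the most abundant of the 48 genes, with means of 126 ± 105, 190 ± 118 and 225 ± 127 and medians of 134, 172 and 208 in the 3 classes. Its ratios, -0.59, -0.83 and -0.24, stayed within the size rule. Fibronectin (Fn1), the first scaffold of many embryonic matrices, was found in 7 of 7 bud cells (1.16 to 39.4, median 4.75), 37 of 46 Six2-detecting cells (0.0536 to 60.9, median 10.7) and 33 of 33 remaining cells (1.11 to 140, median 38.1). Its means were 12.9 ± 14.2, 17.6 ± 18.5 and 44.0 ± 33.4, and the ratio in Six2-detecting over remaining cells was -1.27. Fbn2 had medians of 17.9, 18.1 and 35.9 and means of 20.7 ± 12.3, 26.1 ± 23.2 and 43.0 ± 29.7, with overlapping ranges. Fbn1, its paralog, was detected in 0 of 7, 22 of 46 and 19 of 33 cells at class means up to 5.63. Tenascin C (Tnc) was detected in 0 of 7, 11 of 46 and 3 of 33 cells.

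Fibrillar collagens and basement membrane genes were then weighed against each other within each cell, as the summed RPKM of each role. The fibrillar sum had a median of 8.60 (0.357 to 57.5) in bud cells, 31.3 (0.497 to 199) in Six2-detecting cells and 98.1 (4.62 to 464) in remaining cells. The basement membrane sum had medians that were closer together, 59.8 (30.6 to 204), 46.5 (5.26 to 134) and 68.1 (0.679 to 274). The log2 ratio of (fibrillar sum + 1) over (basement membrane sum + 1) had a median of -2.32 in bud, -0.67 in Six2-detecting and 0.79 in remaining cells, with SDs over cells of 2.13, 1.95 and 2.59. It was above 0, with more fibrillar than basement membrane RPKM, in 0 of 7, 19 of 46 and 22 of 33 cells. Without the few-gene cells the medians were -2.32, -0.64 and 0.77.

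**Figure D4:**
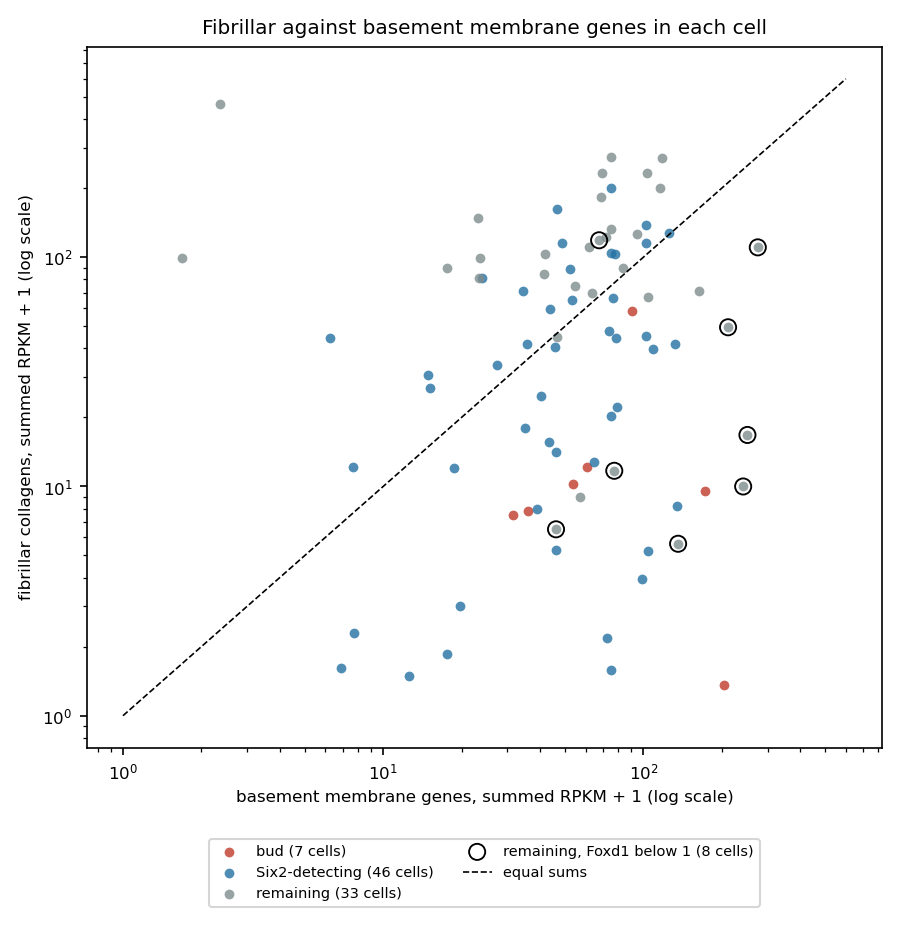
Summed RPKM of the 9 fibrillar collagens against that of the 15 basement membrane genes, each plus 1 and on log axes, in every cell; colours are the 3 classes, black rings the 8 remaining cells without Foxd1, and the dashed line equal sums. All 7 bud cells lie below the line, as do 7 of the 8 ringed cells, while most other remaining cells lie above it.

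Foxd1, which is no matrix gene, parted the remaining cells. The log2 ratio of fibrillar over basement membrane sum had a median of 1.03 in the 25 remaining cells with Foxd1, 21 of them above 0, and of -2.78 in the 8 without it, 1 of them above 0. Of the 48 matrix genes, 20 were higher with Foxd1 (20.4% of all genes were) and 11 were lower (12.9%). Fibrillar collagens were mostly on the first side, with 7 of 9 higher and 1, Col2a1, lower. Of the 15 basement membrane genes, 1 was higher and 7 were lower. These counts lean on single cells. Without the highest cell of each gene in each group, an alternative chosen after the data were seen, 22 matrix genes were higher (24.3% of all genes) and 6 lower (6.72%), among them 6 fibrillar collagens higher and none lower, and 2 basement membrane genes higher and 4 lower.

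Col1a2 was found in 23 of the 25 cells with Foxd1 (median 37.7) and in 3 of the 8 without (median 0.195), with means of 44.4 ± 38.9 and 8.92 ± 12.8. Col4a1 was found in 7 of 25 and 7 of 8 cells, with medians of 0.0563 and 16.3, means of 4.10 ± 11.1 and 24.3 ± 20.9 and a ratio of -2.31. Its partner Col4a2 had means of 1.57 ± 3.31 and 13.9 ± 18.7, a ratio of -2.53. Lama4 (10.7 ± 16.2 and 30.4 ± 40.5), Nid2 (7.34 ± 10.7 and 26.6 ± 25.3) and Lamc1 (4.14 ± 6.40 and 12.5 ± 18.4) also averaged more without Foxd1, with ratios of -1.43, -1.73 and -1.40, and in each of these the ranges overlapped. For Lama4 and Lamc1 this rested on cell 32, the highest cell without Foxd1 for both. Without the highest cell of each group the Lama4 ratio was -0.93 and the Lamc1 ratio -0.85, both short of the size rule, and the means without Foxd1 were 17.4 and 6.87. Nid2, Col4a1 and Col4a2 stayed past the rule in that alternative, at -1.67, -2.76 and -2.27.

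The 8 cells without Foxd1 differed in the markers they detected. Of these, 3 detected Wnt4 or Lhx1, and the 4 cells with the highest basement membrane sums of all 86 are among them. For these 4, markers were counted of induced nephrons (7 in the table), mural cells (6, genes of pericytes and smooth muscle), stroma (10) and nephron progenitors (11). Cell 71 (sum 274) detected 2 induced, 4 mural, 9 stroma and 6 progenitor markers. Cell 5 (sum 250) detected 7, 2, 4 and 4 in the same order, and cell 32 (sum 241, with a Lama4 RPKM of 122) 3, 0, 4 and 8. Cell 30 (sum 211) detected 2, 4, 8 and 9, so stroma and progenitor markers were both common in cells 30 and 71. Of 11 ureteric bud markers, cells 71, 5, 32 and 30 detected 1, 4, 1 and 0. No cell outside the bud class detected more than 4. Mural markers per cell had a median of 1.5 of 6 in cells without Foxd1 and of 2 in cells with it, and their sum ran from 0 to 1080 and from 0 to 756. Of 9 endothelial markers 3 were in the table, with medians of 1 and 0 per cell. Of the 9 stroma markers other than Foxd1, cells without Foxd1 had a median of 5.5 and cells with it of 8. The part of these markers in the matrix differences was not tested.

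Among Six2-detecting cells, Foxd1 went with the fibrillar side as well. The median log2 ratio of the sums was -0.20 in the 31 cells with Foxd1 and -1.46 in the 15 without. It was above 0 in 14 of the 31 and in 5 of the 15. Of the matrix genes, 11 were higher with Foxd1 (12.8% of all genes) and 3 lower (8.30%), and 4 of the 9 fibrillar collagens were higher and none lower. Col1a1 had a ratio of 1.72, Col1a2 of 1.17 and Col3a1 of 1.23. Without the highest cell of each group these ratios were 2.01, 1.69 and 1.94. In that alternative 11 matrix genes were higher (16.5% of all genes) and 2 lower (4.34%). Among them, 5 fibrillar collagens were higher and 1, Col2a1, was lower. Stroma markers differed alongside: of the 9 other than Foxd1 itself, cells with Foxd1 had a median of 7 and cells without it of 4. The cells with Foxd1 also had more detected genes, with a median of 6465 against 5847. The part of the markers and of the number of genes was not tested.

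Wnt4 and Lhx1 mark nephron progenitors that have begun to form epithelium, but they were not confined to such cells here. Lhx1 was also detected in 4 of 7 bud cells and Wnt4 in 1 of 7. In the 14 cells outside the bud that detected either, the median log2 ratio of fibrillar over basement membrane sum was -1.55, against 0.24 in the other 65. Of the matrix genes, 5 were higher in these cells (5.89% of all genes) and 16 lower (13.3%). Among the higher genes were Lamc1 (ratio 1.36), Col4a1 (1.11), Col18a1 (1.05) and Col2a1 (1.03). Lamc1 was found in 11 of 14 cells (mean 17.0 ± 16.4) and in 31 of the other 65 (6.02 ± 11.6), and Col4a1 in 9 of 14 (17.6 ± 18.0) and 35 of 65 (7.63 ± 12.8). Col1a2 lay on the other side, with 4 of 14 cells and a mean of 6.87 ± 12.9 against 43 of 65 and 23.3 ± 31.7. Lama5 was not among the higher genes, with a ratio of 0.14. Without the highest cell of each gene in each group, Lamc1 (1.32) was the 1 higher gene (2.54% of all genes) and 20 were lower (18.9%). The ratios of Col4a1, Col18a1 and Col2a1 were then 0.99, 0.86 and 0.70, short of the size rule, with cells 40, 73 and 56 the highest among the 14. The 14 cells had a median of 6709.5 detected genes and 6 of 10 stroma markers, against 6087 and 8 in the other 65, and the part of these differences was not tested.

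The authors' deposited table of 450 genes that differ between cells they call six2only and six2andcited1 holds 1 of the 48 genes, Col4a2, with a fold of -6.10 (lower in six2only). Its columns name 35 cells, of which 33 are Six2-detecting and 2 bud cells here, without saying which are six2only, so that fold concerns another set than the 46 Six2-detecting cells. In the Six2-detecting cells used here, split after the data were seen, Col4a2 averaged 7.79 ± 12.3 in the 29 cells with a Cited1 RPKM of at least 1 (17 detecting) and 3.80 ± 6.31 in the 17 others (7 detecting).

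Genes that make, cut or bind matrix were counted from 4 further lists, to be read against all genes, of which 7.40% were higher and 7.65% lower in Six2-detecting than in remaining cells, and 9.62% higher and 21.9% lower in bud than in all other cells. Of 22 collagen processing genes in the table, 0 were higher and 5 lower in Six2-detecting cells, and 2 were higher and 8 lower in bud cells. P4ha1, a prolyl hydroxylase subunit needed for stable triple helices, averaged 16.9 ± 21.2 in Six2-detecting and 38.8 ± 65.8 in remaining cells, a ratio of -1.16. The ratios of Leprel4 and Leprel2, both of the prolyl 3-hydroxylase family, were -0.76 and -0.72 there, short of the size rule. Leprel2 was detected in 1 of 7 bud cells and 33 of 79 others, a ratio of -1.64. Serpinh1, the collagen chaperone, was found in 7 of 7 bud cells and 75 of 79 others, with a ratio of -0.61. Ppib, a prolyl isomerase of collagen folding, averaged 412 ± 95.4 in bud cells and 344 ± 150 in the others, a ratio of 0.26. The processing genes named here thus ranged from lower to about level in the bud.

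Of 12 matrix proteases and inhibitors, 0 were higher and 4 lower in Six2-detecting than in remaining cells, where the share of lower genes over the table was 7.65%. In bud cells 0 were higher and 6 lower, against 21.9% of all genes. Timp1, an inhibitor of metalloproteinases, averaged 13.6 ± 30.2 in Six2-detecting and 35.4 ± 58.4 in remaining cells, a ratio of -1.31, and its ratio in bud over other cells was -1.58. Mmp2, a gelatinase, averaged 22.9 ± 26.6 in Six2-detecting and 53.6 ± 58.1 in remaining cells, a ratio of -1.19. Mmp14, the membrane-bound protease that activates it, had a ratio of -0.95 there and of -1.29 in bud over other cells. Adamts1, which cleaves versican, averaged 0.371 ± 0.519 in bud and 17.9 ± 26.2 in the other cells.

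Of 20 matrix receptors, 3 were higher and 3 lower in Six2-detecting than in remaining cells (7.40% and 7.65% of all genes), and 3 higher and 6 lower in bud than in other cells (9.62% and 21.9%). Sdc2 and Sdc4, syndecans that bind matrix through heparan sulfate chains, lay on opposite sides. Sdc2 averaged 11.9 ± 21.0 in Six2-detecting (19 of 46) and 41.9 ± 77.9 in remaining cells (21 of 33), a ratio of -1.73, and was detected in 1 of 7 bud cells against 40 of 79 others, a ratio of -2.43. Sdc4 averaged 77.3 ± 54.9 in Six2-detecting (45 of 46) and 33.4 ± 44.2 in remaining cells (28 of 33), a ratio of 1.19. Itga6, an alpha subunit of laminin receptors, averaged 12.4 ± 16.0 in bud cells (4 of 7) and 2.22 ± 6.54 in the others (14 of 79), a ratio of 2.05. Itga8, the alpha subunit of the receptor for nephronectin and one of the progenitor markers above, averaged 14.5 ± 16.1 in Six2-detecting cells (35 of 46), 6.72 ± 13.2 in remaining cells (10 of 33) and 0.707 ± 1.56 in bud cells (1 of 7).

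Of 25 other matrix genes, 4 were higher and 11 lower in bud than in other cells (9.62% and 21.9% of all genes), and 2 were higher and 4 lower in Six2-detecting than in remaining cells (7.40% and 7.65%). Nephronectin (Npnt), the Itga8 ligand, which the ureteric bud is known to secrete, averaged 36.3 ± 38.9 in bud cells (6 of 7) and 1.25 ± 8.37 in the others (4 of 79), the reverse of Itga8. Spock2, a testican proteoglycan, averaged 15.5 ± 15.1 in Six2-detecting cells (42 of 46) and 2.30 ± 7.31 in remaining cells (3 of 33), a ratio of 2.32. Smoc2, a calcium-binding matricellular protein, was found in 5 of 46 and 7 of 33 cells of these classes, a ratio of -1.99. Egfl6 was found in 6 of 46 and 7 of 33 of them, with means of 9.67 ± 29.5 and 30.9 ± 81.5 and a ratio of -1.58. Egfl6 and Ecm1 were listed at 0 in all bud cells and have no ratio to them, while 13 and 32 of the 79 other cells detected them, with means of 18.5 ± 57.8 and 28.0 ± 56.2.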

How the data were processed

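RNA was measured in 86 single cells of 1 pool of kidneys, captured on a Fluidigm C1 with SMARTer cDNA and Nextera XT libraries and sequenced on a HiSeq2500, per the labels' protocols. The deposited RPKM values were made by the authors, and per the file headers their table holds only genes above an RPKM of 3 in 3 or more cells. TopHat 1.4.1, DESeq and the build mm9 are named, with no role given, per the submitters' processing notes. A count of cells above that RPKM, per the file headers, was not used. The second deposited table gives the authors' signed fold, and how it was made is not given in the sources used here. Read totals are unknown, so no detection floor is given. All columns carry the same run label.

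RPKM was used on the linear scale, with a pseudocount of 1 added to class means before log2 ratios. Detection means an RPKM of at least 1. SDs are over cells, shares have exact Clopper-Pearson 95% intervals, and no test was made because all cells come from 1 pool. The genes, lists, classes and rules were chosen with earlier results of these data known. Genes with a class mean of at least 10 were described in full. For the other lists, up to 3 examples each were taken in each comparison. They had the largest ratio in size among genes with a mean of at least 10 in either class. No doublet caller was run and all cells were kept. Promoter windows come from RefSeq (GRCm38.p6). Calculations ran in Python 3.11.15 (pandas 2.3.3, numpy 2.4.6, scipy 1.17.1; plots with matplotlib 3.10.9), and the ratio calculation was tested on simulated data. Alternatives were other pseudocounts, averages, filters, scalings, class limits and left-out cells. The values of 1 gene of the set are not reported here, although it stays in the counts, medians and sums.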

Additional observations from a re-analysis of the deposited data

How the results depend on the processing

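Of 256 summary values recomputed under the alternatives, 243 stayed within the tolerance for an unchanged value and 13 moved. The tolerance was a set fold change for counts, the exact 95% interval for shares, and an SD over cells or genes for ratios. With a pseudocount of 0.1, 10 genes in place of 6 were higher in bud than in Six2-detecting cells, and 4 in place of 1 were higher in Six2-detecting than in remaining cells. With log2 values averaged over cells, the genes lower in bud were 9 in place of 18 against Six2-detecting cells and 16 in place of 26 against remaining cells, and in Six2-detecting over remaining cells 2 were higher and 10 in place of 17 lower. Cells scaled to the same RPKM sum gave 3 higher in Six2-detecting cells. Leaving out the highest cell of each gene in each class gave 2 there, and 4 in place of 8 higher in bud than in remaining cells. In the splits by Foxd1 and by Wnt4 or Lhx1, the same step, added after the data were seen, gave 6 in place of 11 lower in remaining cells with Foxd1 and 1 in place of 5 higher in cells with Wnt4 or Lhx1. Six2-detecting cells without Foxd1 gave 4 higher and 26 lower than remaining cells, and Col1a1 in bud over Six2-detecting cells then was 0.14 in place of -1.21, the 1 reversal. The cause was not tested. For the comparisons of the classes, the shares over all genes were not recomputed under these alternatives. Whether the counts of lower genes stay above those shares therefore cannot be told here. Of 880 values of single genes, 852 stayed and 27 moved. No summary value moved past its tolerance when a bud cell, the few-gene cells or remaining cells with Wnt4 or Lhx1 were left out. The same held with a Six2 limit of 5, with a Mal2 limit of 10, or with genes of a class mean of at least 1 only. Single genes still crossed the size rule within that tolerance. Without the few-gene cells, Col5a2 (-0.75), Col6a1 (-0.19), Col6a2 (-0.32), Col9a2 (-0.78) and Col4a5 (-0.80) fell short of it in Six2-detecting over remaining cells. Fewer than 17 genes were then lower there. No paired analysis was possible because all cells come from 1 pool and no test was made. Reads per cell are unknown, so genes not detected in a cell may lie below its depth.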
